A study of Mus musculus with 6 samples.

Results

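Collagen chain genes are those whose symbol has the form Col, a type number, the letter a and a chain number, and 44 of the 55011 genes in the deposited mouse count table have such a symbol. Collagens are the structural proteins of connective tissue, and each is built from chains that wind around each other into trimers. Fibrillar types such as I, III and V form the fibres that bear load, type IV forms the sheet of basement membranes, and type VI forms beaded filaments that link cells to the fibres. In fat, fibroblast-like stromal cells are a main source of fibrillar collagen, and adipocytes are wrapped in a basement membrane.

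RNA with a poly(A) tail was counted in 6 libraries of cultured stromal cells from mouse visceral fat (VAT in the labels, eWAT in the design text) with genotype label Il33-EGFP-, that is without green signal from the Il33 reporter allele. One group was kept for 3 days with 10 nM irisin/HSP90α (3 libraries, called irisin here) and the other with phosphate-buffered saline (3 libraries, called PBS). Irisin is a hormone cut from a muscle membrane protein, and HSP90α is a chaperone found inside and outside cells. The design text asks if such treatment moves precursors of fat cells to an immunomodulatory fate. The titles name irisin alone, and the labels leave unsaid whether PBS wells held HSP90α and whether replicates were separate cultures or animals. Every p-value here therefore reflects how far these 6 libraries scatter, and that scatter may be purely technical.

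Levels are given as CPM, a gene's counts relative to library size, scaled by TMM, which equalises the bulk of genes between libraries. A log2 fold change (LFC) is irisin over PBS with its standard error, and an adjusted p comes from edgeR (quasi-likelihood F-test), Benjamini-Hochberg corrected across the 12296 genes that could be tested, with 0.05 as the threshold. Library totals ran from 5360724 to 6588363 counts with irisin and from 5271309 to 6745799 with PBS. On the second principal component (23.9% of variance) irisin replicate 1 and PBS replicate 3 stood apart from the other 4 libraries, and results that rest on them are given with and without both. The fit without both keeps the closest pair of each group, a choice made after the data were seen, so it favours low p-values and is no independent support. The stromal markers Pdgfra, Pdgfrb, Dcn, Lum, Thy1 and Vim all passed the filter on low counts (summed level 9521 to 10209 CPM with irisin and 8490 to 8818 CPM with PBS, most of it in 3 genes, Dcn, Pdgfra and Vim). Of these 6, Pdgfra rose (LFC 0.60 ± 0.09, adjusted p = 0.00062), Lum (LFC -0.76 ± 0.14, adjusted p = 0.00659) and Thy1 (LFC -1.30 ± 0.20, adjusted p = 0.00138) fell, and their part in the collagen results was not tested. The endothelial list, which includes Pecam1 and Cdh5, summed to 0.157 to 1.6 CPM with irisin and 0.736 to 1.43 CPM with PBS. In the leukocyte list Ptprc averaged 0.171 CPM with irisin and 0.312 CPM with PBS, while Csf1r stood at 59.2 CPM with irisin and 59.7 CPM with PBS. The mesothelial list summed to 0.387 to 12.8 CPM with irisin and 0.871 to 5.55 CPM with PBS, and the Schwann list to 2.51 to 4.06 CPM with irisin and 2.03 to 2.21 CPM with PBS, with Upk1b at 0 in every library. Of 8 mature adipocyte markers 6 were tested, all lower with irisin, and Lep was at 0 in every library. The list summed to 146 to 199 CPM with irisin and 639 to 1084 CPM with PBS, most of it Car3 (130 CPM with irisin and 618 CPM with PBS). Cidec (8, 4 and 3 counts with irisin) and Retn (16, 9 and 5) met the filter in all 3 libraries of a group only with PBS, where they are high. The part of these lower markers in the collagen results was not tested. In such bulk samples, fewer cells of a type and less RNA per cell cannot be told apart.

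Of the 44 collagen genes, 27 passed the filter, and 4 of these passed the test: Col1a1, Col18a1 and Col24a1 rose with irisin and Col6a3 fell. The 4 calls are 14.8% of the 27, beside 7.42% of all genes tested. The rises are 11.1% of the members beside 4.2% of all genes, and the fall is 3.70% beside 3.22%. These shares are over members that passed the filter, Col24a1 only through its irisin counts, and are given as a description. The median LFC of the 27 was -0.15, beside -0.01 for all genes tested, with 17 members below 0 and 10 above. In 10 of the 27 (37.0%, beside 23.6% of all genes tested) the 3 irisin values lay wholly above or wholly below the 3 PBS values, 5 in each direction.

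**Figure D1:**
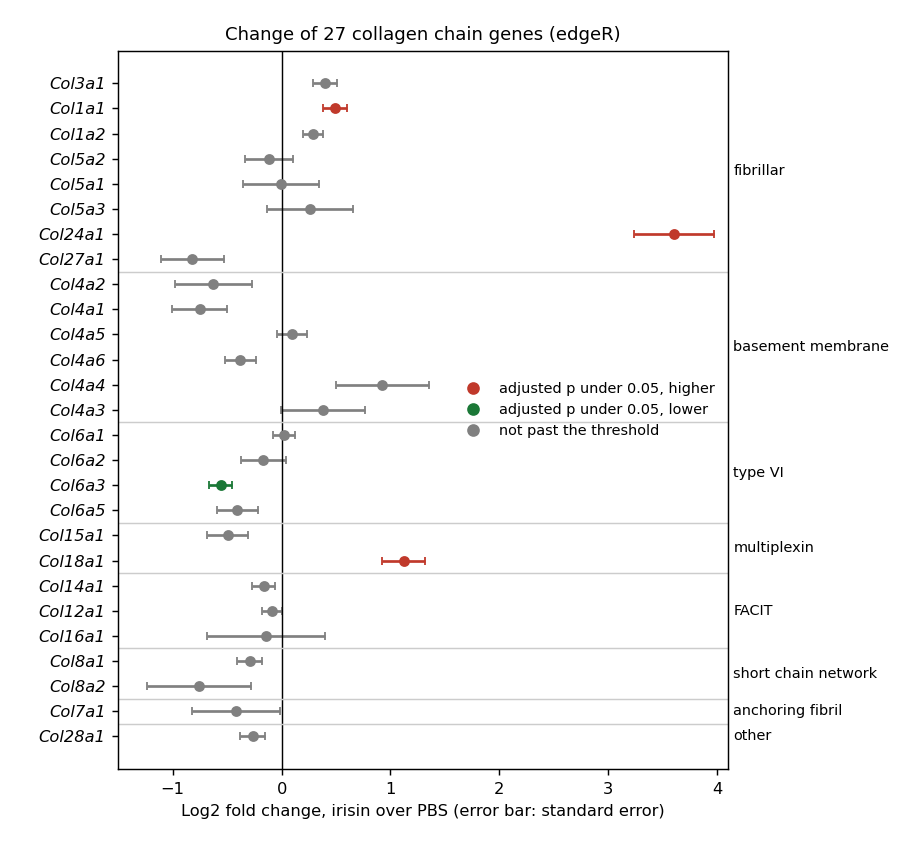
Log2 fold change of irisin over PBS (x axis) for the 27 collagen chain genes that passed the filter (rows, grouped by collagen type), with standard errors as bars. Col24a1 lies far to the right at 3.61, Col18a1 at 1.12 and Col1a1 at 0.49 are the other rises, and Col6a3 at -0.56 is the fall.

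Col24a1 had the largest change of the 27. It encodes the chain of type XXIV collagen, a minor fibrillar collagen known from bone and cornea. Its counts were 48, 37 and 35 in irisin replicates 1, 2 and 3, against 4, 3 and 3 in PBS replicates 1, 2 and 3. That is 7.68, 7.15 and 5.50 CPM with irisin and 0.581, 0.475 and 0.552 CPM with PBS, so the groups lay far apart. With irisin the gene rose (LFC 3.61 ± 0.37, adjusted p = 2.80e-05). It passed the filter, with its count minimum of 10, only through the irisin libraries, where it is high, so its place among the tested members is not independent of its difference. With no filter the LFC was 3.60 ± 0.44. The PBS counts are few, and the ratio of summed counts scaled by library size (120 with irisin, 10 with PBS) was 12.6 with an exact 95% counting interval from 6.60 to 26.9, which covers counting error only. Without irisin replicate 1 and PBS replicate 3 the LFC was 3.52 ± 0.50 (adjusted p = 1.74e-06). No exon of another annotated gene overlaps it. Per kilobase of exon it reached 0.889 CPM with irisin and 0.0703 CPM with PBS, the 22nd and 34th level among the 44 genes.

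The promoter of Col24a1 is shown because it is the collagen gene that changed most. It lies on chromosome 3 at chr3:145292222-145292521 (plus strand, GRCm38.p6, RefSeq) and runs from 250 bases before the start site to 50 after it. Capitals mark the letters TGACGTCA, the cAMP response element that proteins of the CREB and ATF family bind. They begin at base 244 of the window.
Col24a1: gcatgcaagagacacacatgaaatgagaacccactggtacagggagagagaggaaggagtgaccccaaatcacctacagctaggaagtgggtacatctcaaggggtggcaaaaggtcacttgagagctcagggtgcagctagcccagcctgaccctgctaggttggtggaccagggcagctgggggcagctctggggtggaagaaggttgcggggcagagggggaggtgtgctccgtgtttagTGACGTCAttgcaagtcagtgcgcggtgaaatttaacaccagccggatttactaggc
Among the 38 promoter windows listed for 35 of the 44 collagen genes this is the only window with that element, which is present in 1.79% of all 32851 listed promoters. Searches on both strands for the AP-1 motif TGANTCA (present in 7.81% of all listed promoters), the CCAAT box, the Sp1 box GGGCGG and the NF-κB consensus (4.51%) found no match in this window. Such a match is a description of letters, and binding was not measured.

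Type I collagen, the main load-bearing fibril, is made of chains from Col1a1 and Col1a2. Col1a1 measured 11083, 12029 and 11646 CPM in irisin replicates 1, 2 and 3, against 9136, 8812 and 6799 CPM in PBS replicates 1, 2 and 3. Every irisin library was above every PBS library, and Col1a1 rose (LFC 0.49 ± 0.11, adjusted p = 0.0155, a 1.40-fold rise). The call was lost without irisin replicate 2 (adjusted p = 0.0985) or irisin replicate 3 (adjusted p = 0.0725). Without both irisin replicate 1 and PBS replicate 3, the fit that favours calls, Col1a1 passed (LFC 0.40 ± 0.04, adjusted p = 1.60e-10). Col1a2 measured 7808, 8555 and 8342 CPM with irisin, against 7186, 6983 and 6110 CPM with PBS. Its groups did not overlap either, but it did not pass (LFC 0.28 ± 0.09, adjusted p = 0.0877). With all 6 libraries Col1a2 passed with limma-voom with quality weights (adjusted p = 0.0145) and with no low-count filter (adjusted p = 0.0164). It did not pass with DESeq2 (adjusted p = 0.0727).

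Col3a1 encodes type III collagen, the thin fibril of soft tissue, and was the most abundant collagen gene. It measured 22698, 26759 and 26289 CPM in irisin replicates 1, 2 and 3, against 21235, 20033 and 16301 CPM in PBS replicates 1, 2 and 3. The groups did not overlap, and Col3a1 did not pass (LFC 0.40 ± 0.11, adjusted p = 0.0514). The result depended on the libraries and the test. It passed without irisin replicate 1 (adjusted p = 0.0401), without PBS replicate 3 (adjusted p = 0.0231) and with DESeq2 (adjusted p = 0.0182). It did not pass without irisin replicate 2 (adjusted p = 0.240), without irisin replicate 3 (adjusted p = 0.198) or with total counts (adjusted p = 0.1103). Per kilobase of annotated exon, Col3a1, Col1a1, Col1a2, Col6a1 and Col5a2 were the 5 highest collagen genes in both groups, in that order. Their levels were 2572 ± 226, 1765 ± 72.5, 663 ± 31.0, 351 ± 24.7 and 299 ± 55.7 CPM per kilobase with irisin, and 1955 ± 262, 1257 ± 193, 544 ± 46.0, 346 ± 42.9 and 323 ± 82.4 CPM per kilobase with PBS (SD, n = 3 each). In both groups Col6a1 and Col5a2, neighbours in this order, differed by less than 1 SD of Col5a2. The exon length counts all annotated isoforms, so a gene with long minor isoforms reads lower on this scale.

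Type V collagen starts fibrils and sits inside them, and none of its 3 chain genes passed. Col5a2 measured 2248, 3197 and 3149 CPM with irisin, against 3474, 3636 and 2194 CPM with PBS (LFC -0.11 ± 0.22, adjusted p = 0.872). Col5a1 measured 457, 756 and 728 CPM with irisin, against 753, 803 and 391 CPM with PBS (LFC -0.00 ± 0.35, adjusted p = 0.998). In each gene irisin replicate 1 and PBS replicate 3 were the low libraries of their groups. Col5a3, a chain of minor type V forms, ranged from 53.6 to 95.7 CPM with irisin and from 34.1 to 79.8 CPM with PBS (LFC 0.26 ± 0.39, adjusted p = 0.829). Col27a1, a fibrillar chain of cartilage, was low at 2.72, 2.51 and 2.04 CPM with irisin, against 4.499, 4.12 and 4.23 CPM with PBS. Its groups did not overlap, and it did not pass (LFC -0.82 ± 0.29, adjusted p = 0.129).

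Type IV collagen is the network of basement membranes, and none of its 6 chain genes passed in the fit of all 6 libraries. Col4a1 measured 453, 660 and 618 CPM in irisin replicates 1, 2 and 3, against 1138, 1123 and 657 CPM in PBS replicates 1, 2 and 3 (LFC -0.75 ± 0.25, adjusted p = 0.175). Its partner Col4a2, which joins it in the common trimer, measured 479, 842 and 823 CPM with irisin, against 1262, 1358 and 691 CPM with PBS (LFC -0.63 ± 0.35, adjusted p = 0.464). In both genes PBS replicate 3 lay within the range of the irisin libraries, while PBS replicates 1 and 2 lay well above it. Without irisin replicate 1 and PBS replicate 3, a choice made after the data were seen, Col4a1 (LFC -0.82 ± 0.05, adjusted p = 1.80e-15) and Col4a2 (LFC -0.65 ± 0.05, adjusted p = 5.98e-13) passed as lower. The call of Col4a1 also depended on the test with all 6 libraries. It passed with DESeq2 (adjusted p = 0.000796), limma-voom with quality weights (adjusted p = 0.00361) and edgeR without robust dispersion (adjusted p = 0.0459). Col4a2 passed with limma-voom with quality weights (adjusted p = 0.0433). These weights are set per library from the same data and can count a library that stands apart for less, so the limma-voom fit is not an equal-weight test. Without PBS replicate 3 alone Col4a1 passed (adjusted p = 0.0110) and Col4a2 did not (adjusted p = 0.248). Markers of mural and smooth muscle cells, which also make basement membrane, summed to 1852 to 2125 CPM with irisin and 2208 to 2491 CPM with PBS. Most of that sum was 1 gene, Acta2 (1796 CPM with irisin and 2157 CPM with PBS), which did not pass. Of the 6 tested, 1 was lower, Cspg4 (2.23 CPM with irisin and 6.87 CPM with PBS). Cspg4 (10, 15 and 14 counts with irisin) met the filter in all 3 libraries of a group only with PBS, where it is high. Rgs5 averaged 0.846 CPM with irisin and 0.835 CPM with PBS and was too low to test. The part of these markers in the type IV values was not tested.

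Col4a1 and Col4a2 lie head to head on chromosome 8, Col4a1 from 11198423 to 11312826 on the minus strand and Col4a2 from 11312805 to 11449287 on the plus strand (GRCm38, GENCODE M21). The promoter windows are shown because both genes are read from this shared region. Both were lowest in irisin replicate 1 and PBS replicate 3 within their groups. That is not particular to the pair, since it held for 20 of the 27 tested collagen genes, beside 22.7% of all genes. The annotated start sites are 21 bases apart, so that the first exons share 22 bases on opposite strands and the windows share 78 bases. Capitals mark CCAAT and GGGCGG on either strand. The Col4a1 window is chr8:11312777-11313076 (minus strand) and the Col4a2 window is chr8:11312555-11312854 (plus strand), both GRCm38.p6 from RefSeq.
Col4a1: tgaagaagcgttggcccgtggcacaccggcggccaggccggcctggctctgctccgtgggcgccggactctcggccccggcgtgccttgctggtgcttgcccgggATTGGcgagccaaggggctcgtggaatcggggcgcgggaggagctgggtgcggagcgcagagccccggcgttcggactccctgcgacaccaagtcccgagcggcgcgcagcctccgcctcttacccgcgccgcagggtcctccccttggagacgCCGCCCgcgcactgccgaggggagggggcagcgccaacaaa
Col4a2: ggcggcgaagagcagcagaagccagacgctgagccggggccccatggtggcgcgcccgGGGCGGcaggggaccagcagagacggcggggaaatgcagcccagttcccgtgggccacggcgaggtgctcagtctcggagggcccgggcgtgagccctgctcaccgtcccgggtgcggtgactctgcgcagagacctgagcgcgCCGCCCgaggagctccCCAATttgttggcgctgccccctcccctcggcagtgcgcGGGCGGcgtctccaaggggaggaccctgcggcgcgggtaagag
The Col4a1 window has 1 match of CCAAT and 1 of GGGCGG, and the Col4a2 window 1 and 3. The GGGCGG match of Col4a1 lies in the shared bases and is the same site as 1 of the 3 in Col4a2. CCAAT is present in 37.4% and GGGCGG in 35.7% of all listed promoters, so both are common.

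The other chains of type IV were lower in level. Col4a5, a chain of the specialised network, measured 93.9, 136 and 132 CPM with irisin, against 117, 122.6 and 99.97 CPM with PBS (LFC 0.09 ± 0.14, adjusted p = 0.818). Its groups overlapped fully. Col4a6, which also lies on the X chromosome and pairs with Col4a5 in trimers, measured 16.3, 15.8 and 17.4 CPM with irisin, against 21.2, 23.6 and 19.7 CPM with PBS. The groups did not overlap, and it did not pass (LFC -0.38 ± 0.15, adjusted p = 0.171). Col4a3 and Col4a4, chains of the kidney filter network, stood at 10 to 27 and 16 to 28 counts per library with irisin and 10 to 23 and 5 to 20 with PBS. Neither passed (adjusted p = 0.698 and 0.276), and an exon of another annotated gene on the opposite strand overlaps 563 bases of Col4a3.

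Type VI collagen is abundant in fat, and its usual trimer holds the products of Col6a1, Col6a2 and Col6a3. Col6a3, the largest of these chains, measured 315, 410 and 363 CPM in irisin replicates 1, 2 and 3, against 552, 572 and 481 CPM in PBS replicates 1, 2 and 3. Every irisin library was below every PBS library, and Col6a3 fell (LFC -0.56 ± 0.11, adjusted p = 0.00475, 1.48-fold lower). Its call held without each library in turn and in all other alternatives run, at LFC -0.66 to -0.47. Col6a1 measured 1414, 1604 and 1598 CPM with irisin, against 1666, 1572 and 1304 CPM with PBS (LFC 0.02 ± 0.10, adjusted p = 0.950). Col6a2 measured 578, 760 and 757 CPM with irisin, against 903, 901 and 550 CPM with PBS (LFC -0.17 ± 0.21, adjusted p = 0.779). Both overlapped between groups. Col6a2 passed as lower without irisin replicate 1 and PBS replicate 3 (LFC -0.25 ± 0.05, adjusted p = 0.000234), where Col6a1 did not (LFC -0.01 ± 0.05, adjusted p = 0.912). Col6a5, a chain that can take the place of Col6a3 in trimers, measured 9.12, 11.596 and 8.33 CPM with irisin, against 13.9, 12.7 and 11.599 CPM with PBS, just without overlap (LFC -0.41 ± 0.19, adjusted p = 0.283).

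Types XV and XVIII, the multiplexins, are proteoglycans of basement membrane zones whose ends can be cut off as restin and endostatin, inhibitors of vessel growth. Col18a1 measured 80.7, 118 and 103 CPM in irisin replicates 1, 2 and 3, against 53.7, 51.3 and 33.0 CPM in PBS replicates 1, 2 and 3. Every irisin library was above every PBS library, and Col18a1 rose 2.17-fold (LFC 1.12 ± 0.19, adjusted p = 0.00606). The call held without each library in turn, and without irisin replicate 1 and PBS replicate 3 the LFC was 1.07 ± 0.10 (adjusted p = 5.02e-11). Col15a1 measured 93.9, 115 and 102.0 CPM with irisin, against 181, 153 and 102.4 CPM with PBS (LFC -0.49 ± 0.19, adjusted p = 0.201). PBS replicate 3 alone fell into the irisin range, and without it Col15a1 passed as lower (LFC -0.69 ± 0.10, adjusted p = 0.000110). Leaving out the library that overlaps favours a call, and Col15a1 did not pass without any other single library (adjusted p 0.247 to 0.427). With all 6 libraries it passed as lower with limma-voom with quality weights (adjusted p = 0.0190) and with no low-count filter (adjusted p = 0.000161). It did not pass with DESeq2 (adjusted p = 0.0621) or in the other fits of all 6 libraries. Within each library the ratio of Col15a1 to Col18a1 counts was 1.16, 0.975 and 0.986 with irisin, against 3.36, 2.98 and 3.11 with PBS. This ratio, chosen after the values were seen, does not depend on the scaling of libraries, and PBS replicate 3 lay between the other PBS libraries in it.

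Col18a1 lies on chromosome 10 from 77052178 to 77166548 on the minus strand, and RefSeq lists a pair of start sites for it. The windows are shown because the counts are summed over the gene, so that transcripts from these starts cannot be told apart here. Capitals mark CCAAT and GGGCGG on either strand. The upstream window is chr10:77166481-77166780 and the downstream window chr10:77113656-77113955, both on the minus strand of GRCm38.p6.
Col18a1, upstream start: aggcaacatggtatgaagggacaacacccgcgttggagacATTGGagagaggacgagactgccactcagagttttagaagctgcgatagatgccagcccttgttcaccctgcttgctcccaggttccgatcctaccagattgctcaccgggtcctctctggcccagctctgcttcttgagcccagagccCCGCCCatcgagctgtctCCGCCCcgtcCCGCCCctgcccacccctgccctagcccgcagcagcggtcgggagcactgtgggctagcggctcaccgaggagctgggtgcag
Col18a1, downstream start: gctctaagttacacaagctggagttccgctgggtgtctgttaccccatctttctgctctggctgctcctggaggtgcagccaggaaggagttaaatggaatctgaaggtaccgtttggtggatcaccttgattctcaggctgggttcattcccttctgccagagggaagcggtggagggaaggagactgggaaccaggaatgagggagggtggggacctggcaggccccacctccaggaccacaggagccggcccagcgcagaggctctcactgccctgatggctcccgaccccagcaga
The upstream window has 1 match of CCAAT and 3 of GGGCGG, and the downstream window has 0 of either. On the same chromosome Col6a1 (76708792 to 76726168) and Col6a2 (76595762 to 76623630) are the nearest collagen genes, and neither passed. On chromosome 1 the same holds for the neighbours Col3a1 (45311538 to 45349706) and Col5a2 (45374321 to 45503282), whose LFC were 0.40 ± 0.11 and -0.11 ± 0.22.

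**Figure D2:**
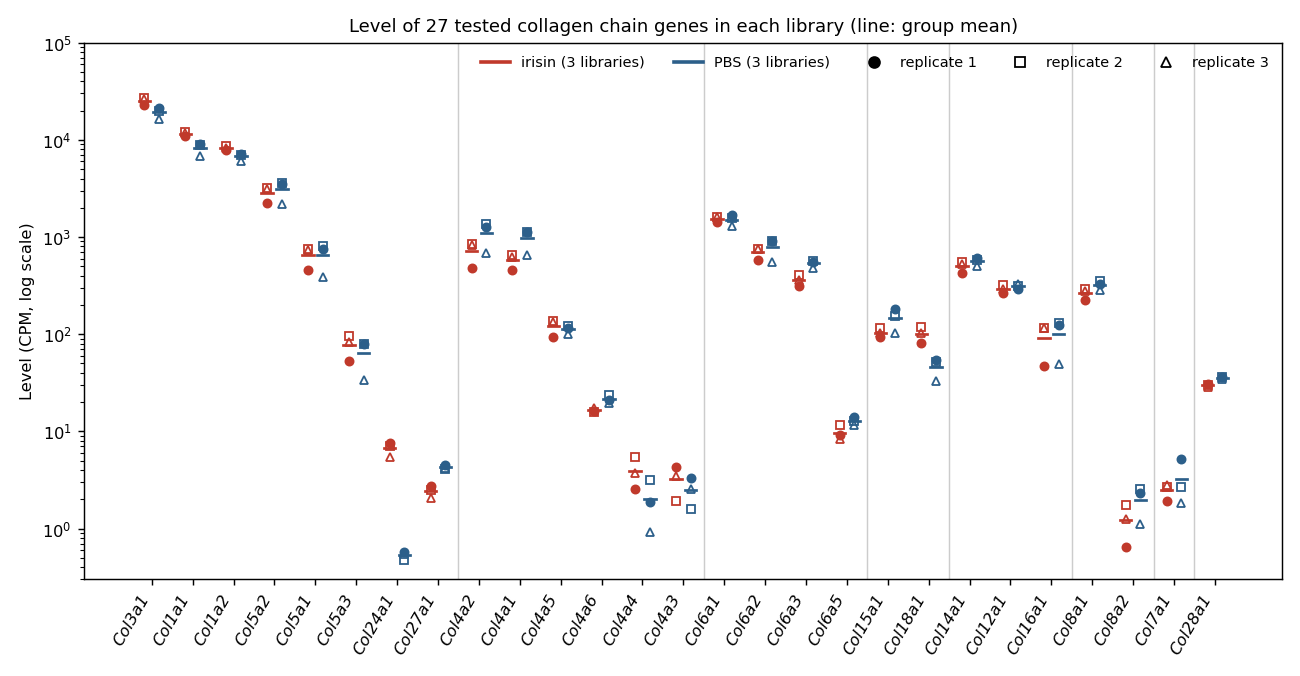
Level in CPM (log y axis) of each of the 27 tested collagen chain genes in the 3 irisin libraries (red) and the 3 PBS libraries (blue), with lines at group means and grey lines between collagen types. Irisin replicate 1 (filled red circles) and PBS replicate 3 (blue triangles) are the lowest of their group for most genes, and Col24a1 shows the widest gap, 6.78 CPM with irisin against 0.536 CPM with PBS.

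Fibril-associated collagens sit on the surface of fibrils, and none of the 3 tested passed. Col14a1 ranged from 430 to 551 CPM with irisin and from 501 to 612 CPM with PBS (LFC -0.17 ± 0.11, adjusted p = 0.492). Col12a1 ranged from 267 to 318 CPM with irisin and from 289 to 332 CPM with PBS (LFC -0.09 ± 0.09, adjusted p = 0.704). Both overlapped between groups. Col16a1 measured 46.7, 116 and 115 CPM in irisin replicates 1, 2 and 3, against 124, 131 and 49.7 CPM in PBS replicates 1, 2 and 3 (LFC -0.15 ± 0.54, adjusted p = 0.941). It had the widest spread within groups of the genes above 10 CPM, with a coefficient of variation of 42.8% with irisin and 44.4% with PBS, set by irisin replicate 1 and PBS replicate 3.

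Among the remaining tested chains, Col8a1, a short chain of vessel and eye membranes, measured 223, 290.5 and 277 CPM with irisin, against 331, 353 and 283 CPM with PBS (LFC -0.29 ± 0.11, adjusted p = 0.175). Its groups overlapped only because irisin replicate 2 lay above PBS replicate 3. Without PBS replicate 3, a choice that favours a call, Col8a1 passed as lower (adjusted p = 0.0258). Without irisin replicate 2, which also parts the groups, it did not pass. Its partner Col8a2 stood at 4 to 9 counts per library with irisin and 6 to 16 with PBS (adjusted p = 0.473). Col28a1 was lower without overlap and with a narrow spread, at 30.4, 30.3 and 28.6 CPM with irisin, against 36.1, 36.3 and 35.0 CPM with PBS, and did not pass (LFC -0.27 ± 0.11, adjusted p = 0.230). Col7a1, the anchoring fibril of skin, stood at 12 to 18 counts with irisin and 10 to 36 with PBS (adjusted p = 0.680).

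The other 17 collagen genes were too low to test. None exceeded 20 counts in a library, a level that Col6a6, a chain akin to Col6a3, reached in PBS replicate 1 (8, 3 and 7 counts with irisin, against 20, 8 and 16 with PBS). The cartilage chains Col2a1, Col9a1, Col9a2, Col9a3, Col10a1, Col11a1 and Col11a2 had between 1 and 28 counts over all 6 libraries. All 4 transmembrane collagens, Col13a1, Col17a1, Col23a1 and Col25a1, were in this group, with 4 to 40 counts over all libraries. The remaining 5, Col6a4, Col19a1, Col20a1, Col22a1 and Col26a1, had 3 to 31 counts. At this depth 3 counts correspond to 0.471 to 0.580 CPM in the irisin libraries and 0.435 to 0.552 CPM in the PBS libraries. These genes were left out of the main fit, and at such counts small differences would not show.

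Collagen genes together took up 4.78%, 5.54% and 5.41% of all counts in irisin replicates 1, 2 and 3, against 5.02%, 4.85% and 3.81% in PBS replicates 1, 2 and 3. Their summed level was 54112 ± 4560 CPM with irisin and 44622 ± 6647 CPM with PBS (SD, n = 3 each), and the groups overlapped. Col3a1, Col1a1 and Col1a2 made up 82.5% to 85.0% of collagen counts with irisin and 75.1% to 79.0% with PBS. Fibrillar chains held 90.7%, 89.6% and 89.7% of collagen reads with irisin, against 85.1%, 84.6% and 86.0% with PBS. Type VI chains held 4.74%, 4.85% and 4.87% with irisin, against 6.38%, 6.42% and 6.35% with PBS, a far narrower spread within groups than their summed level had (2318 to 2786 CPM with irisin and 2348 to 3139 CPM with PBS). Basement membrane chains held 2.15%, 2.89% and 2.85% with irisin, against 5.17%, 5.52% and 3.98% with PBS. Fibril-associated chains held 1.52%, 1.72% and 1.69% with irisin, against 2.09%, 2.17% and 2.39% with PBS. None of these shares overlapped between groups. They are shares of reads, not of molecules, and they add up to the whole, so a larger fibrillar share means smaller shares elsewhere.

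**Figure D3:**
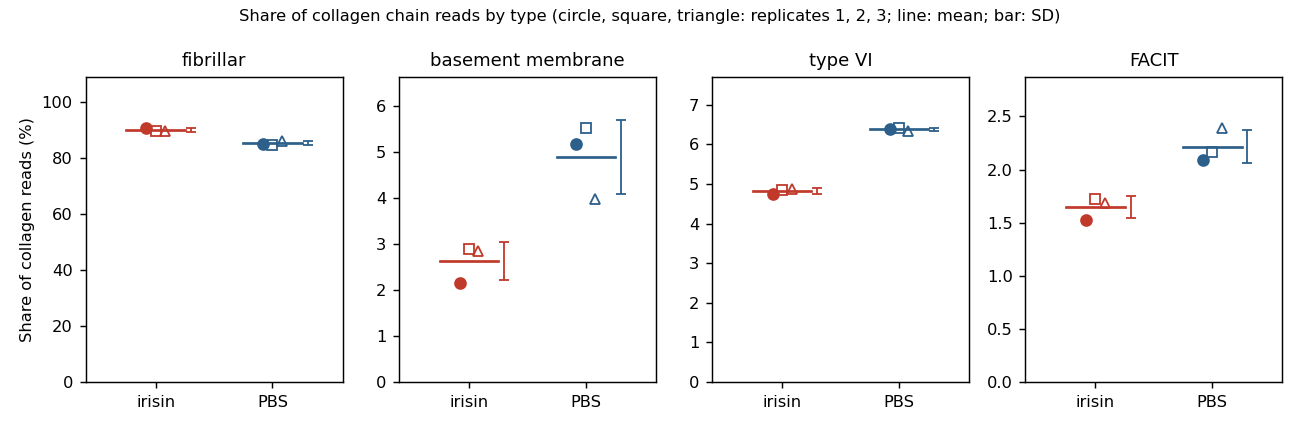
Share of all collagen reads (y axis, percent, from 0) held by 4 collagen types in each irisin library (left, red) and PBS library (right, blue), with lines at means and SD as bars. The fibrillar share was higher with irisin (90.0% against 85.3%), and the type VI share was lower with a small spread (4.82 ± 0.07% against 6.38 ± 0.03%).

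Ratios between chains were also compared within libraries, as descriptions with no test, first for chains that share a trimer. Counts of Col1a1 over Col1a2 were 1.42, 1.41 and 1.40 with irisin, against 1.27, 1.26 and 1.11 with PBS. Counts of Col6a3 over Col6a1 were 0.223, 0.256 and 0.227 with irisin, against 0.332, 0.364 and 0.369 with PBS. Neither of these ratios overlapped between groups. Counts of Col6a1 over Col6a2 were 2.45, 2.11 and 2.11 with irisin, against 1.85, 1.74 and 2.37 with PBS, and those of Col5a1 over Col5a2 were 0.203, 0.237 and 0.231 with irisin, against 0.217, 0.221 and 0.178 with PBS. Both of these overlapped, so within type VI one pair of chains separated the groups and the other did not. Counts of Col4a1 over Col4a2, the pair with the shared promoter region, were 0.946, 0.784 and 0.751 with irisin, against 0.902, 0.827 and 0.950 with PBS. These overlapped, while the levels of both genes differed widely within each group. Counts of Col4a6 over Col4a5 were 0.174, 0.116 and 0.132 with irisin, against 0.182, 0.193 and 0.197 with PBS, without overlap. Between chains of different type IV trimers, counts of Col4a5 over Col4a1 were 0.207, 0.2065 and 0.214 with irisin, against 0.103, 0.109 and 0.152 with PBS, also without overlap.

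**Figure D4:**
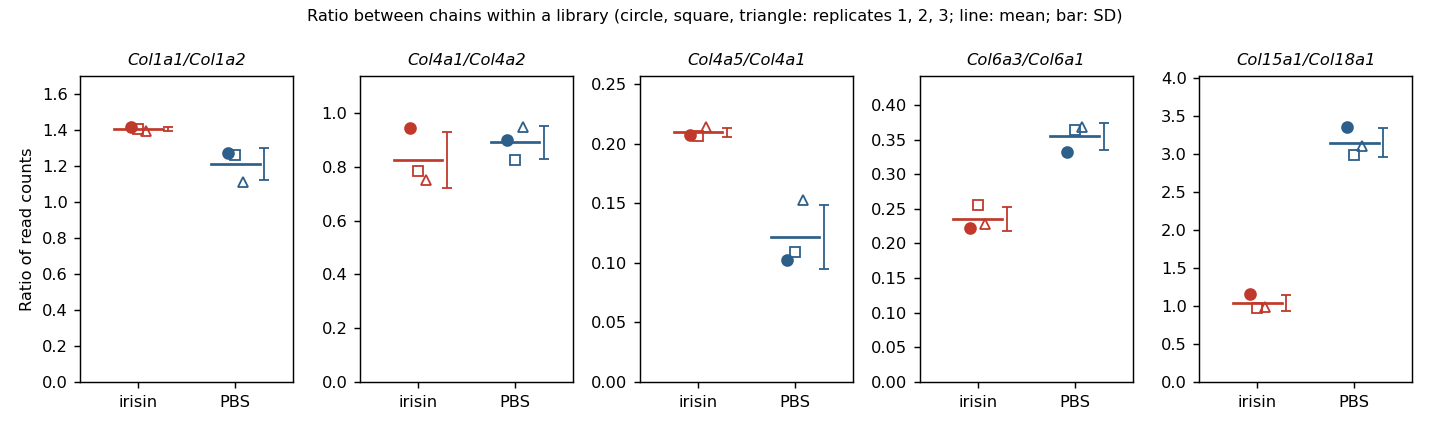
Ratio of read counts between 2 chains (y axis, from 0) in each irisin library (left, red) and PBS library (right, blue), with lines at means and SD as bars. Col15a1 over Col18a1 separated most (1.04 ± 0.11 with irisin against 3.15 ± 0.19 with PBS), and Col4a1 over Col4a2 overlapped (0.827 ± 0.104 against 0.893 ± 0.062).

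The libraries that stood apart were low in collagen. Irisin replicate 1 was the lowest irisin library for 21 of the 27 tested members, beside 37.4% of all genes tested, and PBS replicate 3 was the lowest PBS library for 23, beside 40.3% of all genes. Both held for 20 members, beside 22.7% of all genes. They also had the fewest genes detected in their groups (20667 with irisin and 19816 with PBS). PBS replicate 3 had the fewest counts of its group too (5271309), while irisin replicate 1 (6396422) did not. The share of mitochondrial counts was 0.916% in irisin replicate 1 and 0.891% in PBS replicate 3, beside 0.846% to 0.905% in the other 4 libraries. The part of these differences in the collagen values was not tested. With both libraries left out, 12 of 27 members passed (44.4%, beside 13.5% of all genes in that fit). They were 5 higher, beside 7.18% of all genes, and 7 lower, beside 6.34%. The 4 calls made with all libraries were among them, and the others were Col1a2 and Col3a1 (higher) and Col4a1, Col4a2, Col5a2, Col6a2, Col8a1 and Col15a1 (lower). The remaining libraries are the closest pair of each group, so this choice favours more calls and is no independent support.

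Enzymes and helpers that make and assemble collagen were counted in the same fit. Of 28 tested, 7 rose and 1 fell (median LFC 0.19, beside -0.01 for all genes and 7.42% of all genes called). Of the rises, P3h2 passed the filter only through its irisin counts (20, 12 and 19, against 3, 4 and 7 with PBS). Its place among the tested genes is thus not independent of its difference. P4ha2, a subunit of the prolyl hydroxylase that stabilises the trimer, measured 827, 792 and 817 CPM with irisin, against 333, 323 and 378 CPM with PBS. It rose 2.36-fold (LFC 1.24 ± 0.09, adjusted p = 1.06e-06), and its sister subunit P4ha1 rose too (LFC 0.59 ± 0.09, adjusted p = 0.000935). Plod1, a lysyl hydroxylase that prepares crosslinks, rose 1.54-fold (LFC 0.62 ± 0.08, adjusted p = 0.000205). Pcolce2, an enhancer of the proteinase that trims procollagen, fell to 273 CPM with irisin, against 481 CPM with PBS (LFC -0.82 ± 0.12, adjusted p = 0.000713). The other 4 rises were Fkbp10, Bmp1, P3h2 and Lox (LFC 0.33 to 1.89), and each of these lost its call on leaving out at least 1 library. Serpinh1, the collagen chaperone HSP47, did not pass (1971 CPM with irisin and 1854 CPM with PBS, adjusted p = 0.644). The rises numbered 4 without irisin replicate 2, 3 without irisin replicate 3 and 12 without irisin replicate 1 and PBS replicate 3 together, and the falls 4 without PBS replicate 3.

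Of 7 collagen receptor genes tested, 1 fell and 0 rose in edgeR (beside 3.22% and 4.2% of all genes), and 2 had an unadjusted p under 0.05 (beside 18.2% of all genes). The fall was Itgb1, the β1 integrin subunit, at 377, 416 and 509 CPM with irisin, against 709, 626 and 527 CPM with PBS (LFC -0.52 ± 0.13, adjusted p = 0.0308). The call was lost without irisin replicate 1 or 2 or PBS replicate 1 or 2 (adjusted p 0.1003 to 0.139), and without irisin replicate 1 and PBS replicate 3 together (adjusted p = 0.0856). Ddr1, a collagen-activated kinase, did not pass (LFC 0.46 ± 0.14, adjusted p = 0.0952) but did with DESeq2 (adjusted p = 0.0366). Of 5 collagen-degrading proteases tested, 2 rose and 1 fell, beside 4.2% and 3.22% of all genes, and the median LFC was -0.28. Mmp9, a gelatinase, had 38, 29 and 30 counts with irisin, against 1, 3 and 9 with PBS (LFC 2.91 ± 0.50, adjusted p = 0.00238). It passed the filter through the irisin libraries, where it is high, so its place among the tested proteases is not independent of its difference. With so few PBS counts the size of its rise depended on single libraries, at LFC 4.09 without PBS replicate 3 and 2.38 without PBS replicate 1, while the call held. Mmp8, a collagenase, rose 1.55-fold (adjusted p = 0.0234). Mmp2, the other gelatinase, fell to 474 CPM with irisin, against 614 CPM with PBS (LFC -0.37 ± 0.09, adjusted p = 0.0200). The calls of Mmp8 (adjusted p 0.0719 to 0.114) and Mmp2 (adjusted p 0.0758 to 0.129) were lost without irisin replicate 1 or 2 or PBS replicate 1 or 2, and without PBS replicate 3 the falls numbered 3.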

How the data were processed

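Whole-number read counts per gene symbol were deposited by the authors for 6 libraries in 1 table, with no normalization. The submitters' processing notes name the tools STAR 2.7.3a and featureCounts and the build mm10, with no role or order. Annotation release, strandedness and multi-mapping rule: not given in the sources used here. Thus reads on exons shared between strands are uncertain. Columns were matched to samples by title.

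From the deposited counts, edgeR 4.0.16 in R 4.3.3 kept genes with filterByExpr (count minimum 10), scaled by TMM and fitted the whole table with group as the sole term, using robust quasi-likelihood F-tests. Standard errors are the LFC divided by the root of the F statistic. CPM divides counts by the TMM-scaled sum of tested genes. Alternatives were other scalings, DESeq2 1.42.0, limma-voom (limma 3.58.1), other filters and thresholds, the replicate block and each library left out. The limma-voom fit always used quality weights, set per library from the data. The test step was run first on simulated counts. The members, collagen types, partner lists and markers were chosen with earlier results of these data known. All tested chains may be named, and of partner lists the called members of lowest p. Serpinh1, Ddr1 and the chain ratios were picked after their values were seen. Positions and exon lengths are from GENCODE M21, which matched all 44 symbols. Within groups, pairs of libraries differed by a chi-square of 2.74 to 14.9 per degree of freedom, so none was counted as a repeat.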

Additional observations from a re-analysis of the deposited data

How the results depend on the processing

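Over 18 alternatives, 432 refits of the 27 tested chains kept direction and side of the threshold, 27 newly passed, 2 lost a call and 19 changed sign. The rises of Col18a1 and Col24a1 and the fall of Col6a3 held wherever they could be fitted (Col24a1 is too low for a count minimum of 50), and Col1a1 lost its call only without irisin replicate 2 or 3. Collagen rises numbered 5 with limma-voom, with no low-count filter, at an adjusted p of 0.10 and without PBS replicate 3 and irisin replicate 1 together. Collagen falls numbered 2 with DESeq2 or no robust dispersion, 4 with limma-voom, 3 with no low-count filter and 7 without both libraries, beside 892 rises and 788 falls among all genes there. Leaving out 1 library each gave 2 to 4 collagen rises, 1 to 4 falls, 336 to 705 rises of all genes and 238 to 585 falls, where the highest count of falls, and of all-gene rises, came without PBS replicate 3. With total counts alone 602 of all genes fell, and the median LFC of all genes was -0.09.

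No chain that changed sign was called in either fit. Col6a1 was -0.055 with total counts, -0.0094 with limma-voom and -0.014 without both libraries, and -0.071 to 0.099 without 1 library each. Without both libraries Col12a1 was 0.024. Col5a1 was 0.026 with the replicate block, and without 1 library each ran from -0.26 to 0.19. On leaving out 1 library each, Col16a1 ran from -0.47 to 0.18, Col5a2 from -0.31 to 0.033, Col5a3 from -0.032 to 0.47, Col4a5 from -0.00024 to 0.25 and Col7a1 from -0.68 to 0.12.

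Synthesis rises numbered 4 with the replicate block and 12 without both libraries, and 3 to 8 without 1 library each. Synthesis falls numbered 3 with total counts, limma-voom or an adjusted p of 0.10, 2 with no low-count filter, 4 without both libraries and 1 to 4 without 1 library each. Receptor rises numbered 1 with DESeq2, limma-voom, no low-count filter, an adjusted p of 0.10 and both libraries left out, and 0 to 1 without 1 library each. Receptor falls numbered 0 with the replicate block, 2 without both libraries and 0 to 1 without 1 library each. Protease rises numbered 1 with a count minimum of 50 and 1 to 2 without 1 library each. Protease falls numbered 2 with total counts, no low-count filter or an adjusted p of 0.10, 3 with limma-voom or both libraries left out, 0 with the replicate block and 0 to 3 without 1 library each. Deviations from the group mean correlated between same-numbered libraries at -0.24, 0.16 and -0.18 for replicates 1, 2 and 3. Only replicate 2 correlated best with its own number. Deviations from a mean of 3 libraries are tied to each other, so these values cannot decide whether libraries were paired. The replicate block changed no collagen call (3 rises and 1 fall). With the block the calls of Itgb1 (adjusted p = 0.107), Mmp2 (0.0881), Fkbp10 (0.0694), P3h2 (0.0531) and Lox (0.145) did not pass.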
